A study of Mus musculus with 4 samples.

Results

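The regions described here are 8 stretches of mouse chromosome 7 in which zinc finger genes lie side by side. They run from 4.91 to 5.06 Mb, 6.13 to 7.21 Mb, 12.41 to 12.98 Mb, 24.08 to 25.23 Mb, 27.68 to 28.38 Mb, 29.76 to 30.17 Mb, 42.47 to 43.61 Mb and 127.23 to 127.88 Mb of the GRCm38 assembly (mm10), and each is named below by the Mb position at which it starts. The stretches were chosen with earlier results of these data known. A pair of anchors belonged to a cluster when at least 1 of its anchors overlapped that stretch, a rule by position alone. This rule took 18060 of the 1513030 pairs in the count table, or 1.19%, and 314 of its 56562 anchors. An anchor is an interval between restriction sites that the authors used as an end of a contact, and all 3393 anchors of chromosome 7 start and end at a GATC site of that assembly, the site that DpnII cuts.

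H3K27ac HiChIP of mouse embryonic stem cells gave the contacts. The cells came from 2 inbred strains, C57BL/6J, called B6 below, and DBA/2J, called D2, and each strain has 2 biological replicates, each a line of its own. The title names trans-regulation of heterochromatin and genetic variation in contacts as the subject, and the design sets the strains against each other. All lines carried only their own strain's genotype and were grown in serum with LIF, the MEK inhibitor PD0325901 and the GSK3 inhibitor CHIR99021. HiChIP joins DNA ends that lie close together in the fixed nucleus and then pulls down those carrying a histone mark, so that a count reflects both contact and mark. H3K27ac, acetylation of lysine on the tail of histone H3, marks active promoters and enhancers.

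Zinc finger genes of the C2H2 type encode DNA-binding proteins with rows of fingers, and many of those in mouse also carry a KRAB domain, which recruits the corepressor TRIM28 (KAP1) and leads to H3K9 trimethylation, most of all at transposable elements. They arose by repeated local duplication and so stand in clusters of related copies. In embryonic stem cells TRIM28 and KRAB zinc finger proteins are known for silencing retrotransposons, and the clusters themselves can be covered by heterochromatin. Genes were counted as zinc finger genes by their symbols, which gave 85 protein-coding genes with a start in a cluster beside 116 other protein-coding genes. That rule also admits Zfp36, an RNA-binding protein with fingers of the CCCH type.

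The repeated fingers can be read in the DNA. The linker between fingers is encoded by letters that fit ACNGGNGANAANCC, and 490 of the 898 matches on either strand of chromosome 7 lay in the clusters, which cover 4.12% of its sequenced bases. The 29.8 Mb cluster held 28.5 matches per 100 kb, the 42.5 Mb cluster 11.7, the other 6 clusters between 3.43 and 7.30, and chromosome 7 outside the clusters 0.300. The stretches of 182 bases that follow were taken from the longest coding exon of a gene in each of the clusters at 29.8, 42.5 and 12.4 Mb. Of 302 gaps between successive matches in such exons, 173 were 84 bases long. Capitals mark the first 3 linkers in each exon that stand at this spacing. Zfp420 lies at chr7:29874510-29874691 on the plus strand, Zfp936 at chr7:43189876-43190057 on the plus strand and Zfp329 at chr7:12810796-12810977 on the minus strand of GRCm38.
Zfp420: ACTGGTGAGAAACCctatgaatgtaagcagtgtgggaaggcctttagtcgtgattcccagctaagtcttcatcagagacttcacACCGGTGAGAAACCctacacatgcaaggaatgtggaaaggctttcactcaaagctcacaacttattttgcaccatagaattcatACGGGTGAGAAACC
Zfp936: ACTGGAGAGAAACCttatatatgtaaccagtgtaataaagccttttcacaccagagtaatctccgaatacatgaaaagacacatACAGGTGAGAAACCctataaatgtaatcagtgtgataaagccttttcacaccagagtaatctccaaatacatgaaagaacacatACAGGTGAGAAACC
Zfp329: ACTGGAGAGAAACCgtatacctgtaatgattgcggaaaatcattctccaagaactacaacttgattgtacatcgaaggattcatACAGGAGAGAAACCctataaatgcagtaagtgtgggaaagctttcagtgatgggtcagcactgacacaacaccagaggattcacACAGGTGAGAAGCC

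The starts of these genes were compared over the 250 bases before the start site in the RefSeq promoter table for GRCm38.p6, which held 76 of the 85 genes. The letters ACTACANNTCCC, the core of the motif bound by ZNF143, were searched on both strands after they had been seen to recur in these promoters. They were present in 25 of the 76 promoters (32.9%) and in 547 of all 32851 promoters of the same length (1.67%). The clusters at 4.9, 42.5 and 127.2 Mb had them in no promoter, the 24.1 Mb cluster in 6 of 11 and the 29.8 Mb cluster in 10 of 14. In that cluster Zfp27, Zfp82 and Zfp382 were lower in D2 without the letters, and Zfp84 and Zfp790, not called, have them. Zfp420 (chr7:29859762-29860011, plus strand), Zfp383 (chr7:29908267-29908516, plus strand) and Zfp260 (chr7:30094826-30095075, plus strand) are shown as examples from the 29.8 Mb cluster. They were chosen for having the letters and an anchor lower in D2, and the match is in capitals.
Zfp420: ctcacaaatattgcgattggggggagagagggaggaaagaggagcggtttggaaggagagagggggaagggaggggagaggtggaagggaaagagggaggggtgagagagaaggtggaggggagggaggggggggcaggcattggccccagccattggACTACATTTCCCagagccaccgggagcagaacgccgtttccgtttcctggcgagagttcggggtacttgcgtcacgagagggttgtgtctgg
Zfp383: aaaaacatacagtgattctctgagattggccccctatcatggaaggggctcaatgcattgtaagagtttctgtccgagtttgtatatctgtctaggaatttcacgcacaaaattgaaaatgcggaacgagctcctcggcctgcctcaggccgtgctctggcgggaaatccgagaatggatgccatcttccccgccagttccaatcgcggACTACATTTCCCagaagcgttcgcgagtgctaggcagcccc
Zfp260: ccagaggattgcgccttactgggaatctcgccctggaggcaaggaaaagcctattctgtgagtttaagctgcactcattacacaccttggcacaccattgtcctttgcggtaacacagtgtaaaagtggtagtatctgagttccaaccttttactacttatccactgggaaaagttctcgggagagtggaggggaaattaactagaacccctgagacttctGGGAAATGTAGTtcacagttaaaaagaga

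At 42.5 Mb the promoters of Zfp977, Zfp976, Zfp975 and Zfp936, picked out after the sequences were seen, were copies of each other. Their 6 pairwise alignments covered 189 to 245 bases with 89.1 to 93.6% identity. The longest stretch identical in all 4 is 21 bases and is in capitals in the sequences of Zfp977 (chr7:42592546-42592795, minus strand), Zfp976 (chr7:42642605-42642854, minus strand) and Zfp936 (chr7:43177340-43177589, plus strand). Counts of such copies are uncertain, because reads could be shared between them, and how the deposited counts treated such reads is not given in the sources used here.
Zfp977: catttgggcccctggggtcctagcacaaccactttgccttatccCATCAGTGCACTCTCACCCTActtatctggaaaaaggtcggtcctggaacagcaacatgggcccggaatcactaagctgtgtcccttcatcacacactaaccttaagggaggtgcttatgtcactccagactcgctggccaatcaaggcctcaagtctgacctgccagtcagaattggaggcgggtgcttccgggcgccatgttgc
Zfp976: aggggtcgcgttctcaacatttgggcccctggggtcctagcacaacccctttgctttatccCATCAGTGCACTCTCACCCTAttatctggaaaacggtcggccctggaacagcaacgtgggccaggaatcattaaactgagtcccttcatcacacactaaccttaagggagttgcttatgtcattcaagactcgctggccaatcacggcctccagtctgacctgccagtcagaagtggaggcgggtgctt
Zfp936: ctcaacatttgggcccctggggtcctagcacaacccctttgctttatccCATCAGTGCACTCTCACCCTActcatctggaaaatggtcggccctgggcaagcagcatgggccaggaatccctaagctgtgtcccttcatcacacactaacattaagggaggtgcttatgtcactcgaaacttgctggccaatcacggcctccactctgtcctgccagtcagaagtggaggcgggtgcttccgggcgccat

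The libraries held 2908329 and 2800847 counts in B6 and 2767882 and 2944258 in D2, of which the clusters took between 1.16 and 1.25%. D2 replicate 1 carried a mark of 10 cycles in its library name where the others carried 8, and listed 715798 pairs with a count against 803268 to 833100 in the others. Anchors at 10 of 13 embryonic stem cell genes summed to 1231 and 1292 CPM (counts scaled to the library total) in B6 and to 2005 and 1243 in D2, so that D2 replicate 1 stood above the rest, while those of endoderm, mesoderm and fibroblast genes summed to 1.91 to 35.6 and those of 4 neural genes to 83.5 to 93.0. A comparison of 2 against 2 libraries by exact permutation cannot give a two-sided p under 0.333, so tests across all features with edgeR were used. The p-values measure the spread between 2 lines per strain.

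Contact strength differed widely between clusters. The CPM of the scaled library total were divided by the width of the cluster. Their mean over the 4 libraries was 6697 per Mb at 4.9 Mb, 3817 at 27.7 Mb, 3347 at 127.2 Mb, 3290 at 29.8 Mb, 1574 at 24.1 Mb, 1510 at 12.4 Mb, 1210 at 6.1 Mb and 904 at 42.5 Mb. For chromosome 7 as a whole the value was 535 per Mb, with each pair counted once. A cluster also takes the full count of pairs that lead out of it. The measures are thus unlike, and the clusters cannot be placed above or below that average. The libraries of the clusters at 27.7 and 127.2 Mb, neighbours in this order, did not overlap, while those at 24.1 and 12.4 Mb, at 12.4 and 6.1 Mb and at 6.1 and 42.5 Mb did. The place of the 29.8 Mb cluster depended on the strain, at 4331 ± 242 per Mb in the B6 libraries but 2248 ± 3.08 in the D2 libraries (SD, n = 2). When only pairs with at least 20 counts were kept, the ratio between the strongest and weakest cluster moved from 7.41 to 13.3.

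The density of anchors differed too. The anchors of the 4.9 Mb cluster, which holds Zfp628, Zfp579, Zfp524, Zfp865, Zfp784 and Zfp580, summed to 78.7% of its width, and those of the 12.4 Mb cluster to 20.0%, counting whole anchors at the edges. Per kb of anchor the mean ranged between 2.26 CPM at 42.5 Mb and 9.48 at 27.7 Mb. All pairs touching a cluster were also set against the mean count of the listed pairs of the whole table in the same distance class. This ratio of observed to expected counts was 2.43 at 4.9 Mb and 2.36 at 12.4 Mb, 1.43 at 27.7 Mb, 1.28 at 127.2 Mb, 1.06 at 29.8 Mb, 0.995 at 6.1 Mb, 0.855 at 24.1 Mb and 0.740 at 42.5 Mb as means of 4 libraries. In the 29.8 Mb cluster the strains fell on either side of 1, with 1.42 and 1.31 in B6 and 0.771 and 0.755 in D2. In the 42.5 Mb cluster the ratio stood at 0.948 and 0.970 in B6 against 0.515 and 0.528 in D2, again without overlap.

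**Figure D1:**
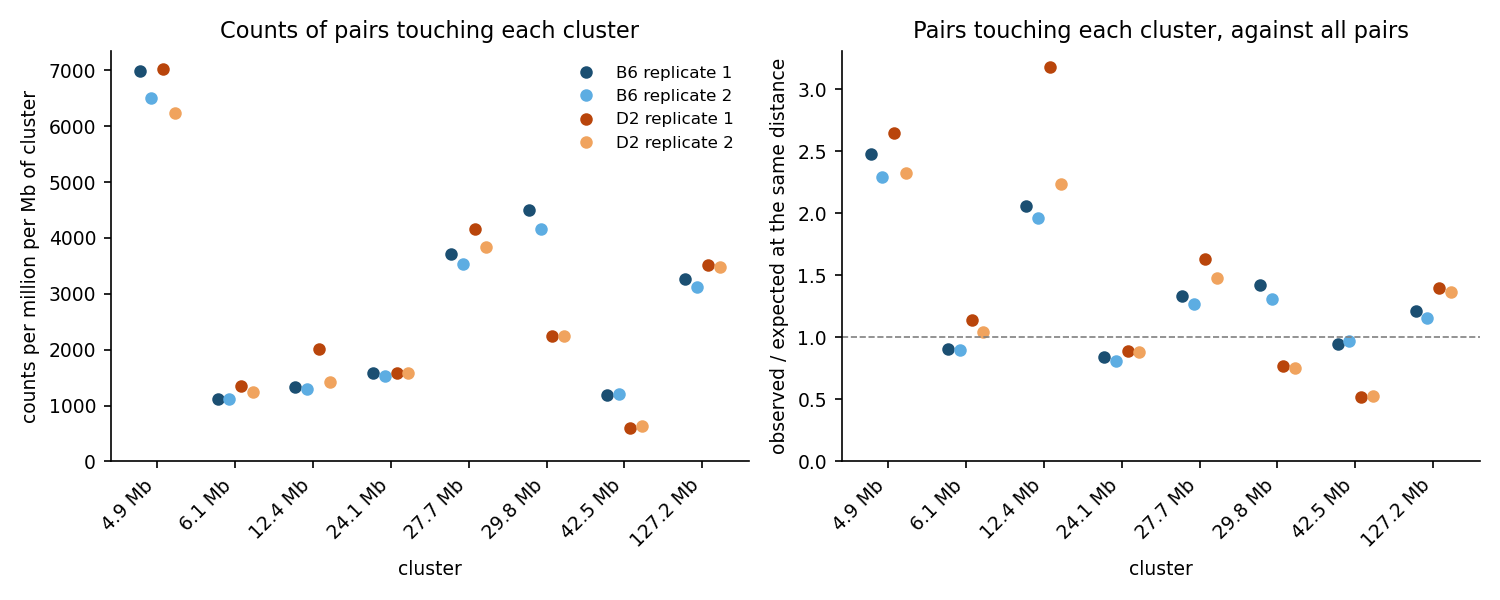
Left, CPM of all pairs touching each cluster, per Mb of cluster; right, the same counts over those expected from all listed pairs at the same distance, with a dashed line at 1. Each point is 1 of the 4 libraries; the D2 libraries lie below both B6 libraries at 29.8 Mb (2250 and 2246 against 4502 and 4160 per Mb) and at 42.5 Mb.

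The strongest single pair joined 2 anchors with gene starts in 6 of the 8 clusters, and at 6.1 and 42.5 Mb it joined a gene start to an anchor without one. In the 12.4 Mb cluster the strongest pair linked the anchor of Zfp324 to an anchor outside the cluster that holds the starts of Chmp2a, Trim28, Ube2m and Zbtb45, with 225 and 214 counts in B6 and 404 and 267 in D2 over 60.7 kb. D2 lay above B6, but its replicates differed and the edgeR adjusted p was 0.235. Over the 11 alternatives that were run, the log2 ratio of this pair went from 0.18 to 0.85. At 127.2 Mb the strongest pair joined Zfp689 to the neighbouring anchor of Fbrs and Prr14, with 139 and 106 counts in B6 and 236 and 157 in D2, and at 24.1 Mb it joined the anchor of Cadm4 and Zfp428 to that of Irgq, with 116 and 100 against 143 and 155. Neither passed the test with all libraries. Over the alternatives the log2 ratio of the former went from 0.25 to 0.92 and that of the latter from 0.31 to 0.47. At 27.7 Mb the pair between Plekhg2 with Zfp36 and Med29 with Paf1, a subunit of the PAF1 elongation complex, had 95 and 76 counts in B6 and 112 and 91 in D2, and the strains overlapped.

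Partners set the clusters apart further. Shares here are of the counts of all pairs that touch a cluster, as means over 4 libraries. The clusters at 6.1, 24.1 and 42.5 Mb, the widest 3, had 81.9, 76.9 and 69.0% of their counts with themselves, and the 127.2 Mb cluster had 54.5%. The other 4 had between 29.7 and 40.1% with themselves. A wide cluster can hold more of its own partners, and the share was not corrected for width. Partners at protein-coding starts other than zinc finger genes outside the clusters took 44.2% at 4.9 Mb, 43.0% at 27.7 Mb and 39.5% at 29.8 Mb.

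The 12.4 Mb cluster had 44.9% of its counts with anchors outside it that hold a zinc finger gene start, against at most 2.67% in any other cluster. A single anchor at chr7:13001818-13047420, 21.8 kb past its edge, carried 68.9% of its outside counts. It holds Trim28, the corepressor of KRAB zinc finger proteins, with Chmp2a, Ube2m and Zbtb45, the zinc finger gene by symbol that puts it in this class, and its pairs with the cluster held 823 and 775 counts in B6 against 1509 and 975 in D2. The anchor of Mzf1, another zinc finger gene, added 67 and 85 counts in B6 and 136 and 112 in D2. Both are higher in each D2 library than in each B6 library.

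Only 2 pairs of clusters were close enough to touch, since the table lists distances of 5 kb to 2 Mb. The clusters at 4.9 and 6.1 Mb shared 264 pairs, with 362 and 288 counts in B6 and 379 and 338 in D2, and none of the 12 that were tested was called by edgeR, nor had any an unadjusted p under 0.05. DESeq2 gave none of them an adjusted p. The clusters at 27.7 and 29.8 Mb shared 209 pairs, with 127 and 105 counts in B6 and 79 and 98 in D2, all too weak to test. The strongest outside partner of the 29.8 Mb cluster was the neighbouring anchor of Capns1, a calpain subunit, and Cox7a1, a subunit of cytochrome c oxidase, at 526 and 430 counts in B6 and 275 and 214 in D2. That of the 4.9 Mb cluster was the anchor of Rpl28, Tmem238 and Ube2s at 420 and 371 against 312 and 302, so that D2 was the lower strain at both partners.

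**Figure D2:**
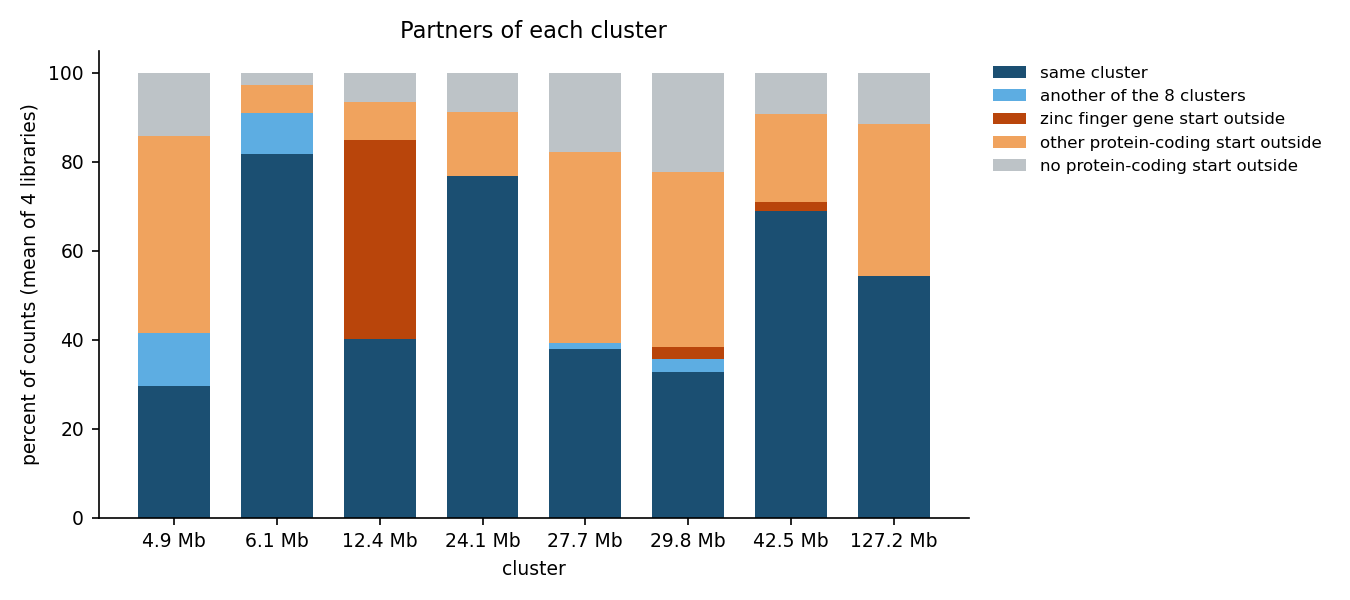
Share of the counts of each cluster by the kind of partner, in percent, as the mean of 4 libraries. The 12.4 Mb cluster stands out by the 44.9% of counts with zinc finger gene starts outside the clusters; the clusters at 6.1, 24.1 and 42.5 Mb have most counts within themselves.

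The clusters also differed in the strain ratio. The summed counts of the clusters at 29.8 and 42.5 Mb were lower in D2, those at 6.1, 12.4 and 27.7 Mb were slightly higher in D2, and those at 4.9, 24.1 and 127.2 Mb did not pass the test. For this comparison the ends of all pairs were summed over each cluster and over windows of 1 Mb elsewhere, and 25.5% of the 2333 regions so tested were called by edgeR at an adjusted p under 0.05, 13.6% lower and 11.9% higher in D2. A log2 ratio is of D2 over B6 throughout. The log2 ratios of whole clusters come from these sums of ends, to which a pair inside a cluster gives both its ends. The counts printed beside them count each pair once and can give another ratio. Of 8 clusters, 2 were called lower and 3 higher, and the clusters at 29.8 and 42.5 Mb stood at places 77 and 80 from the lowest of the 2333 regions.

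The 29.8 Mb cluster had 5253 and 4654 counts in B6 and 2627 and 2765 in D2. Both D2 libraries lay far below both B6 libraries, and the log2 ratio was -0.94 with a standard error of 0.080 and an edgeR adjusted p of 1.28e-08. The 42.5 Mb cluster had 3830 and 3759 counts in B6 and 1954 and 2138 in D2, again without overlap, and its log2 ratio was -0.92 with a standard error of 0.076 and an edgeR adjusted p of 8.83e-09. In CPM, each of the 4 ratios between a D2 and a B6 library lay between -1.003 and -0.89 (log2) at 29.8 Mb and between -1.01 and -0.92 at 42.5 Mb, while over the other 6 clusters they ranged from -0.16 to 0.64. The difference between clusters was not tested further. By the sums of ends, B6 counts were 1.91 times those of D2 at 29.8 Mb and 1.89 times at 42.5 Mb.

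Single anchors show the same counts in finer steps. The total of a cluster is the sum over its anchors, and anchors joined in a pair share its count. They are therefore neither replicates nor separate support for the totals. An anchor's count is the sum over all its pairs, and 9.77% of the 51820 anchors tested were called by edgeR, 7.1% lower and 2.68% higher in D2. Of the 312 cluster anchors tested 63 were lower and 16 higher. The 29.8 Mb cluster had 20 of 25 lower, and the 42.5 Mb cluster 42 of 55, and in both the log2 ratio of every tested anchor was below 0. Their medians were -1.05 and -0.88, beside a median of 0.01 over all tested anchors. Over the 12 settings that were run, between 15 and 21 anchors were lower at 29.8 Mb and between 17 and 43 at 42.5 Mb, the fewest at 42.5 Mb with DESeq2 and the fewest at 29.8 Mb with DESeq2 and without B6 replicate 1, and none was higher. Both D2 libraries lay below both B6 libraries at 23 of 25 anchors and 54 of 55, where 25.3% of all tested anchors did so. The opposite order, both D2 libraries above, held at no anchor of these clusters and at 19.8% of all tested anchors. No other cluster had more than 1 lower anchor.

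**Figure D3:**
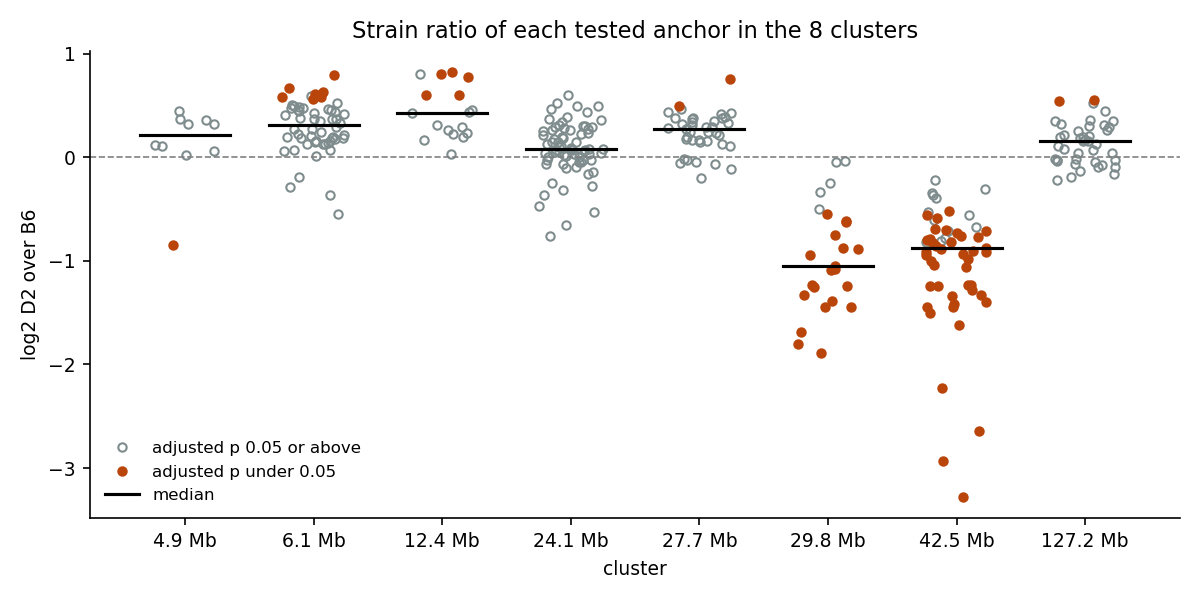
The log2 ratio of D2 over B6 of each tested anchor, by cluster; filled points passed the edgeR test at an adjusted p under 0.05, open points did not, and bars are medians. All points of the clusters at 29.8 and 42.5 Mb lie below 0, with medians of -1.05 and -0.88.

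Single pairs of anchors were the sparsest measure. The minimum of 20 counts, used for anchors too, is on the sum of the 4 libraries. A feature high in 1 strain could thus pass it through that strain alone. Of 108034 pairs with at least 20 counts over the 4 libraries, 1.43% were called by edgeR, 0.956% lower and 0.472% higher in D2. The clusters had 1331 such pairs, and 38 were lower and 4 higher. The 29.8 Mb cluster held 25 of the lower ones among its 137 tested pairs (18.2%) and the 42.5 Mb cluster 11 among 112, and the clusters at 24.1, 27.7 and 127.2 Mb had none called among their tested pairs, of which 13, 35 and 22 had an unadjusted p under 0.05 and DESeq2 called none. At 29.8 Mb 22 of the 59 tested pairs inside the cluster were lower, with a median log2 ratio of -1.22, against 3 of 78 pairs that led outside, with a median of -0.87. At 42.5 Mb all 11 lower pairs were among the 101 inside. The counts of calls moved with the test and the filter: DESeq2 called 3 cluster pairs, and a minimum of 10 counts left 1.

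The 29.8 Mb cluster holds 15 zinc finger genes and 1 other protein-coding gene. Its starts that had an anchor were 14 zinc finger genes on 11 anchors, of which 11 genes were lower in D2 and none higher, and all 14 had log2 ratios below 0. Zfp568, known for repressing a placental transcript of Igf2, had no anchor at its start. The gene anchor with the most counts was shared by Zfp82, Zfp566 and Zfp260, with 1271 and 1104 counts in B6 and 665 and 585 in D2. D2 was lower in both libraries, with a log2 ratio of -0.88 ± 0.18 (standard error) and an edgeR adjusted p of 0.000439. Without B6 replicate 1 that call was lost, at an edgeR adjusted p of 0.113 and a log2 ratio of -0.77.

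Zfp420 had the lowest ratio among the gene starts of this cluster. Its anchor had 39.5 and 35.9 CPM in B6 and 14.5 and 14.4 in D2, a log2 ratio of -1.39 ± 0.17 with an edgeR adjusted p of 7.53e-08. The anchor with the smallest p of the cluster, chr7:29874225-29882714, has no gene start but covers the finger exon of Zfp420 printed above. It had 306 and 274 counts in B6 and 70 and 83 in D2, a log2 ratio of -1.89 ± 0.17 with an edgeR adjusted p of 4.36e-11, and stayed between -1.96 and -1.81 and past the threshold in all 11 alternatives.

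The gene starts at the ends of the row differed. Zfp84 and Zfp790 near the proximal edge had 175 and 130 against 142 and 147 counts and 265 and 227 against 191 and 188, neither passing the test, and Zfp30 between them, with 171 and 145 against 91 and 128, had an edgeR adjusted p of 0.0524. Other anchors at this edge were lower. Between Zfp30 and Zfp790, chr7:29803430-29809065 without a gene start had 153 and 136 against 34 and 47 counts. Its log2 ratio was -1.80, with an edgeR adjusted p of 6.09e-09. The anchor over the finger exon of Zfp790 had -0.55 (edgeR adjusted p of 0.0361), while that of Zfp30 had -0.03 and was not called. From Zfp940 onward each of the 11 zinc finger genes with an anchor was lower. Zfp27 and Zfp383 shared an anchor with 757 and 659 counts in B6 and 295 and 361 in D2 (log2 ratio -1.08), Zfp74 had 473 and 495 against 266 and 247 (log2 ratio -0.88), and Zfp382 had 442 and 405 against 188 and 200 (log2 ratio -1.09). Zfp146 at the distal edge, with 689 and 652 against 382 and 395, had a log2 ratio of -0.75. Zfp940 and Zfp14, the weakest of the row, had 110 and 93 against 54 and 49 and 109 and 85 against 57 and 66, with log2 ratios of -0.94 and -0.62. In all of these 11 genes both D2 libraries lay below both B6 libraries.

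Among pairs of this cluster, the one with the smallest p joined the finger exon anchor of Zfp420 to the shared anchor of Zfp27 and Zfp383 over 33.2 kb. It had 46 and 39 counts in B6 and 6 and 10 in D2, a log2 ratio of -2.46 ± 0.37 with an edgeR adjusted p of 1.29e-07. The pair between the anchor of Zfp82, Zfp566 and Zfp260 and that of Zfp382 had 91 and 81 counts in B6 and 29 and 37 in D2, a log2 ratio of -1.45 ± 0.26 with an edgeR adjusted p of 3.65e-05, which did not pass when pairs of at least 10 counts were tested. The strongest pair of the cluster, from Zfp146 to Capns1 and Cox7a1, had 161 and 129 counts against 75 and 69 and a log2 ratio of -1.08 ± 0.23 with an edgeR adjusted p of 0.0014, a call that was lost when either B6 replicate was left out.

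**Figure D4:**
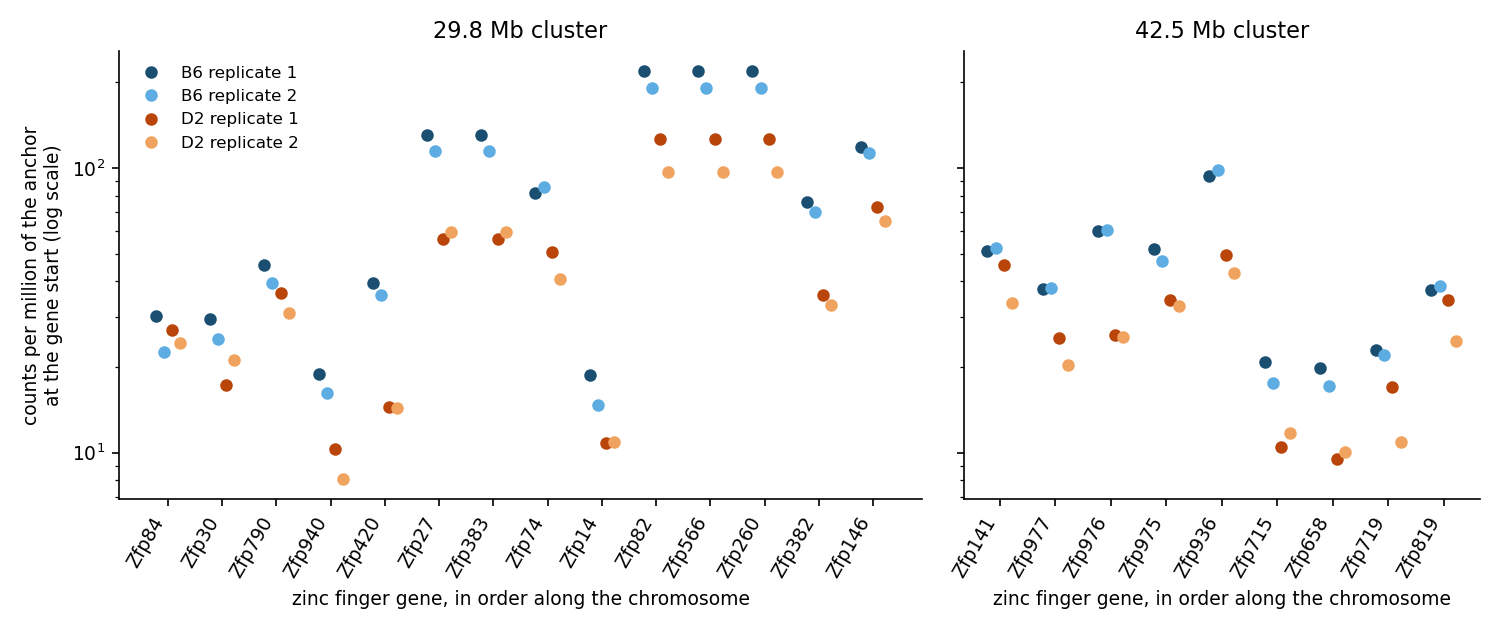
CPM, on a log scale, of the anchor at the start of each zinc finger gene in the clusters at 29.8 and 42.5 Mb, in order along the chromosome, with 1 point for each of the 4 libraries. Zfp27 with Zfp383, and Zfp82 with Zfp566 and Zfp260, share an anchor and so show the same points; the D2 points lie below both B6 points at every gene but Zfp84.

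The 42.5 Mb cluster holds 9 zinc finger genes and 17 other protein-coding genes. All 9 had an anchor at a start, 7 were lower in D2 and none higher, and the log2 ratios of Zfp141 and Zfp819, at -0.39 and -0.37, did not pass the test. Of the other genes 6 had an anchor, and 4 of these were lower. Anchors without a start behaved likewise, with 32 of 41 lower and a median log2 ratio of -0.91. DESeq2 called 2 of the 9 zinc finger genes lower in this cluster.

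Zfp936 had the gene anchor with the most counts of this cluster, at 546 and 567 in B6 and 260 and 259 in D2. The replicates of each strain were close to each other, and the log2 ratio was -1.06 ± 0.16 with an edgeR adjusted p of 6.34e-06. A second start of Zfp936, in the anchor chr7:43112107-43117115, had 66 and 76 counts in B6 and 5 and 13 in D2, a log2 ratio of -2.93 with an edgeR adjusted p of 4.64e-09. The anchor chr7:43049683-43058215, 30885 bases from the nearest protein-coding start, had 64 and 57 counts against 4 and 8, a log2 ratio of -3.28 with an edgeR adjusted p of 4.45e-09, and chr7:42655939-42661204 between Zfp976 and Zfp975 had 87 and 81 against 15 and 20, a log2 ratio of -2.22 with an edgeR adjusted p of 1.66e-08. These 3 anchors passed in all 11 alternatives.

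The copies whose promoters are alike were not equally low. Zfp976 had 349 counts in each B6 library and 136 and 154 in D2 (log2 ratio -1.23), Zfp977 had 219 and 218 against 133 and 123 (log2 ratio -0.73), and Zfp975 had 302 and 272 against 181 and 199 (log2 ratio -0.56). The differences between these copies were not tested. Zfp715, Zfp658 and Zfp719 farther along had 121 and 101 against 55 and 71, 115 and 99 against 50 and 61, and 133 and 127 against 89 and 66 counts. In every one of these 7 genes D2 lay below B6 in both libraries.

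Some tested pairs inside the 42.5 Mb cluster had few counts in D2. The pair between Zfp976 and the anchor chr7:42655939-42661204 had 16 and 17 counts in B6 and 1 in each D2 library, a log2 ratio of -3.95 ± 0.72 with an edgeR adjusted p of 3.7e-05. That between Zfp936 and an anchor 970 bases from the start of Siglecf, a sialic acid binding receptor of immune cells, had 15 and 24 counts against 1 and 3, with an edgeR adjusted p of 3.59e-05, a call lost without B6 replicate 2. The strongest pair, from Zfp936 to its neighbouring anchor, had 43 and 58 against 19 and 21 and an edgeR adjusted p of 0.0012, also lost without B6 replicate 2. In the opposite direction, the pair between 2610021A01Rik and Zfp141, over 892 kb, rose from 5 and 6 counts in B6 to 35 and 17 in D2, a log2 ratio of 2.15 ± 0.45 with an edgeR adjusted p of 0.000661. It did not pass without B6 replicate 1, nor without D2 replicate 1, with a log2 ratio of 1.50 and an edgeR adjusted p of 0.387.

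The lower counts in D2 did not end at the edges of either cluster. Beside the 29.8 Mb cluster, the anchors of the window from 29 to 30 Mb that lie outside it had a log2 ratio of -0.03, while the windows from 30 to 31 Mb and from 31 to 32 Mb had -0.65 and -0.38 with edgeR adjusted p-values of 5.63e-06 and 0.00283. In steps of 100 kb, 105 and 101 CPM in B6 stood against 97.7 and 102 in D2 at 400 kb before the centre, where the strains overlapped. At 300 kb before it the values were 103 and 92.9 against 80.2 and 90.7, and at 200 kb 154 and 129 against 93.0 and 102, with D2 below B6 in both libraries. Around the 42.5 Mb cluster the windows from 41 to 42 Mb and from 43 to 44 Mb had -0.80 and -0.96, that from 44 to 45 Mb had -0.29 with an edgeR adjusted p of 0.0203, and that from 45 to 46 Mb had -0.19 and did not pass. Sparse windows were lower too. That from 40 to 41 Mb had 25 and 25 counts against 6 and 11, and the rest of that from 42 to 43 Mb had 23 and 22 against 6 and 11. Their log2 ratios were -1.55 and -1.40, with edgeR adjusted p-values of 0.00705 and 0.0156. The window from 32 to 33 Mb, past the 29.8 Mb cluster, had 6 and 12 against 3 and 0 (-2.50, edgeR adjusted p of 0.0218). Lower counts thus appeared past the distal edge at 29.8 Mb and past both edges at 42.5 Mb. The count of a window includes its pairs with the cluster, so these windows are not separate from the cluster totals. How much of their drop came from such pairs was not tested.

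**Figure D5:**
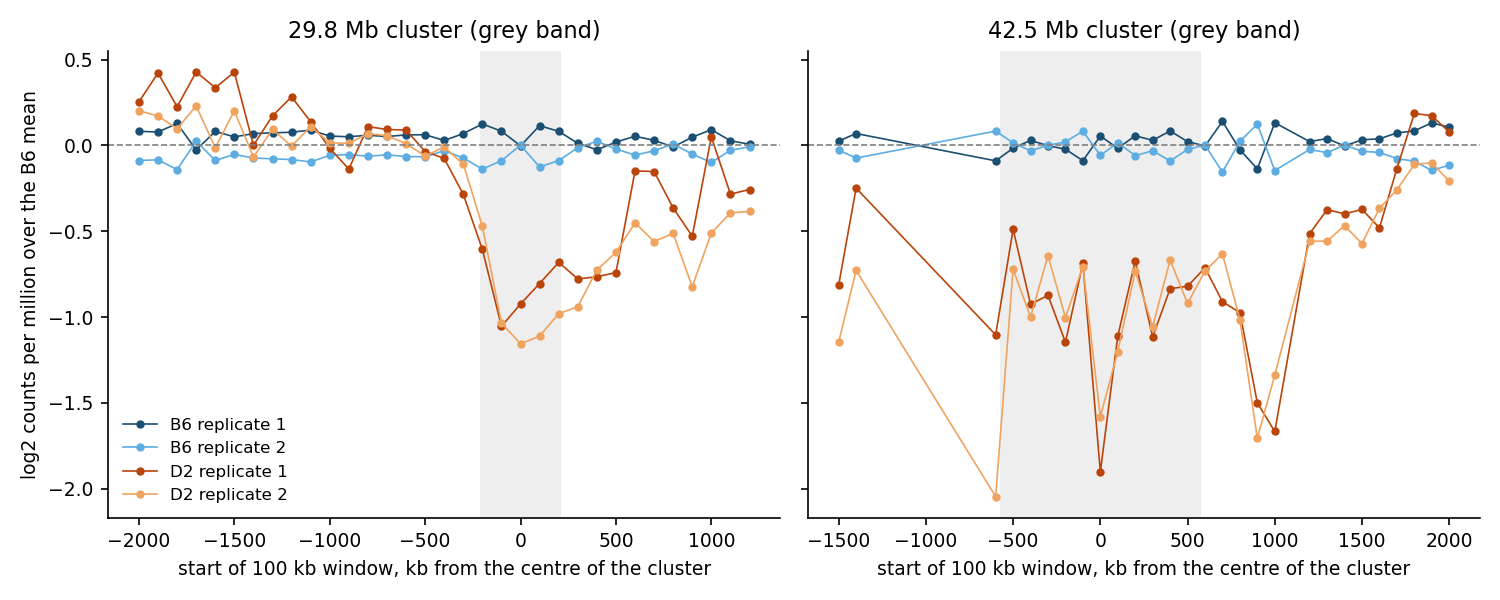
CPM of 100 kb windows around the clusters at 29.8 and 42.5 Mb (grey bands), as log2 over the mean of the B6 libraries, by distance from the centre of the cluster; windows with under 100 counts in all are left out. Both D2 lines drop near the proximal edge of the 29.8 Mb cluster and stay low past its distal edge, and lie below B6 on both sides of the 42.5 Mb cluster. Windows beside a cluster include their pairs with it.

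The higher counts in D2 at other clusters were smaller, and D2 replicate 1 was the higher D2 library in each. The 12.4 Mb cluster had 2165 and 2003 counts in B6 and 3256 and 2417 in D2, a log2 ratio of 0.42 ± 0.11 (standard error) with an edgeR adjusted p of 0.00607. Without D2 replicate 1 the log2 ratio was 0.15 and did not pass. The 6.1 Mb cluster had 3444 and 3297 against 4168 and 4033, a log2 ratio of 0.31 ± 0.082 with an edgeR adjusted p of 0.00644, and 0.23 without that library, which did not pass. The 27.7 Mb cluster had 7405 and 6758 against 8310 and 8078, a log2 ratio of 0.24 ± 0.089 with an edgeR adjusted p of 0.0494, and 0.16 without that library; it also lost the call without B6 replicate 2 and without D2 replicate 2, at 0.18 and 0.31. In CPM, with each pair counted once, the ratios of a D2 to a B6 library were 0.081 to 0.64 at 12.4 Mb (log2). They were 0.15 to 0.28 at 6.1 Mb and 0.048 to 0.24 at 27.7 Mb. Without D2 replicate 1 no cluster was called higher, whereas both lower clusters kept their calls. The same library stood above the others at the stem cell genes, and its part in these results was not tested further.

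In the 6.1 Mb cluster 7 of 56 anchors were higher (12.5%, beside 2.68% of all tested anchors) and 4 of 13 zinc finger genes with them. Peg3, an imprinted gene expressed from the paternal copy, shares an anchor with the imprinted Usp29, and had 222 and 243 counts in B6 and 383 and 315 in D2, a log2 ratio of 0.63 ± 0.17 with an edgeR adjusted p of 0.00811. Zfp78 had 174 and 175 against 272 and 245 (log2 ratio 0.61), and Zfp773 with Zfp954 had 183 and 145 against 198 and 284 (log2 ratio 0.58). Zim1, the imprinted neighbour of Peg3 that is expressed from the maternal copy, had 56 and 45 against 53 and 61 counts with overlapping strains. The calls of Peg3 and Zfp78 were lost without D2 replicate 1, at log2 ratios of 0.37 and 0.43, and also without either B6 replicate, at 0.57 to 0.70. That of Zfp773 with Zfp954 was lost without B6 replicate 2 and without D2 replicate 2, at 0.43 and 0.41. The number of higher anchors in the cluster was 2, 0 and 2 without B6 replicate 1, B6 replicate 2 and D2 replicate 1, and 13 without D2 replicate 2. DESeq2 called none of the 13 genes. The strongest pair of the cluster, between the anchor of Epp13 and its neighbour, had 104 and 109 counts against 252 and 144 and an edgeR adjusted p of 0.0238, which was 0.715 without D2 replicate 1 and 0.606 and 0.422 without the B6 replicates.

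In the 12.4 Mb cluster 5 of 17 anchors were higher, 4 of them at the zinc finger genes Zscan18, Zfp329, Zfp324 and Zfp446 of the 9 in the cluster. Among all tested anchors 2.68% were higher. Zscan18 had 61 and 56 counts in B6 and 102 and 97 in D2 (log2 ratio 0.80), Zfp329 had 58 and 78 against 130 and 97 (0.78), Zfp324 had 662 and 611 against 1060 and 808 (0.61), and Zfp446 had 453 and 367 against 726 and 466 (0.60). None of them passed without D2 replicate 1 or with DESeq2. The cluster had 2 higher anchors without B6 replicate 1, 1 without B6 replicate 2 and 10 without D2 replicate 2. The anchor chr7:12947037-12952951 next to Zfp324 had 260 and 198 against 479 and 301, a log2 ratio of 0.83 with an edgeR adjusted p of 0.0019, and its pair with the anchor of Trim28 had 61 and 54 against 168 and 88, a log2 ratio of 1.09 with an edgeR adjusted p of 0.00167. Without D2 replicate 1 their log2 ratios were 0.33 and 0.51 and neither passed, nor did either without B6 replicate 2. The window from 13 to 14 Mb beyond the cluster, which holds Trim28, was also higher in D2, with a log2 ratio of 0.58 and an edgeR adjusted p of 0.001. It had 2104 and 2074 counts in B6 against 3659 and 2575, so D2 replicate 1 was again the higher. These include the pairs of the Trim28 anchor with the cluster, 823 and 775 against 1509 and 975. The window is thus not separate from the cluster, and its ratio without D2 replicate 1 is not given here.

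At 27.7 Mb 2 of 39 anchors were higher, both at zinc finger genes. That is 5.13%, and 4.88% were higher at 127.2 Mb, near the 2.68% of all tested anchors. The difference from that share was not tested. Zfp59 had 373 and 346 counts in B6 and 687 and 487 in D2, a log2 ratio of 0.76 ± 0.18 with an edgeR adjusted p of 0.0026, and Zfp60 had 357 and 331 against 504 and 440, a log2 ratio of 0.50 with an edgeR adjusted p of 0.043. Both lost the call without D2 replicate 1, at log2 ratios of 0.37 and 0.29, and without either B6 replicate, at 0.45 to 0.82, while 12 anchors of the cluster were higher without D2 replicate 2. The anchor with the most counts in this cluster, that of Plekhg2 and Zfp36, had 974 and 868 against 1122 and 956, and the strains overlapped. At 127.2 Mb 2 of 41 anchors were higher, Zfp688 with 155 and 159 against 244 and 201 and Zfp689 with 383 and 313 against 533 and 461, at log2 ratios of 0.55 and 0.56, and neither passed without D2 replicate 1, at 0.29 and 0.34, or without either B6 replicate, at 0.43 to 0.71. Without D2 replicate 2 the cluster had 8 higher anchors. The most used gene anchor there, that of Fbrs and Prr14, had 955 and 876 against 1394 and 1148 counts with an edgeR adjusted p of 0.0593.

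Zfp59 was the zinc finger gene with the smallest edgeR adjusted p among those higher in D2. Its promoter (chr7:27838334-27838583, plus strand, GRCm38.p6) is shown for comparison with those of the lower genes. Capitals mark CCGGAAG, the letters of an ETS-type site, which were found on either strand in 17 of the 76 promoters (22.4%) and in 6.91% of all promoters. They were present in 5 of 9 promoters at 27.7 Mb and in 1 of 14 at 29.8 Mb. The letters GCGCNTGCGC, of the NRF1 type, were found in 7 of the 76 promoters and in 3.74% of all, and in 3 of 9 at 42.5 Mb.
Zfp59: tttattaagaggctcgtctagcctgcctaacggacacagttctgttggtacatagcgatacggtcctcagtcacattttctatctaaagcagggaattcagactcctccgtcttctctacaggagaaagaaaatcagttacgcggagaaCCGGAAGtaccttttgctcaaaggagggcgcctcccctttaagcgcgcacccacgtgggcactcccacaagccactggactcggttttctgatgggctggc

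The 24.1 Mb cluster, with 14 zinc finger genes and the most anchors, had no called anchor in the comparison of all 4 libraries. It had 5169 and 4822 counts in B6 and 5206 and 5488 in D2. In CPM the ratios of a D2 to a B6 library were 0.0089 to 0.049 (log2). From the sums of ends it had a log2 ratio of 0.10 ± 0.084 with an edgeR adjusted p of 0.402. None of its 69 anchors was called by edgeR, though 14 had an unadjusted p under 0.05, nor by DESeq2, and the 2 zinc finger genes farthest below 0, Zfp108 with 43 and 44 against 24 and 26 counts and Zfp61 with 78 and 62 against 45 and 42, had edgeR adjusted p-values of 0.0688 and 0.0528. Without D2 replicate 1 the cluster had 1 lower anchor, at a zinc finger gene, and 1 higher, and without D2 replicate 2 it had 1 lower and 7 higher, 2 of the latter at zinc finger genes. Zfp108 and Zfp61 were singled out after their values were seen. This cluster and that at 29.8 Mb have the ZNF143 letters in most of their listed promoters, and their strain ratios lay apart. Over all clusters 8 of 18 listed promoters of lower genes and 1 of 11 of higher genes had the letters. A link between the letters and the strain ratio was not tested.

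The 4.9 Mb cluster, the strongest per Mb, had 2987 and 2666 counts in B6 and 3003 and 2812 in D2. In CPM the ratios of a D2 to a B6 library were -0.16 to 0.11 (log2). From the sums of ends it had a log2 ratio of 0.10 ± 0.084 with an edgeR adjusted p of 0.417. Its sign turned without D2 replicate 1 (-0.013) and with pairs of at least 20 counts only (-0.024). Zfp628 had 1063 and 943 counts against 1008 and 979, and none of its 6 zinc finger genes was called by edgeR or DESeq2, though 3 had an unadjusted p under 0.05 and 4 were called higher without D2 replicate 2. It held 1 lower anchor, chr7:4947802-4952258, 10.7 kb from the start of Ssc5d, with 188 and 187 counts against 92 and 112, a log2 ratio of -0.85 with an edgeR adjusted p of 0.000305. The pair of that anchor with the anchor of Rpl28, Tmem238 and Ube2s had 18 and 29 against 6 and 9, a log2 ratio of -1.70 with an edgeR adjusted p of 0.00992, lost without B6 replicate 2 and without D2 replicate 1. The 127.2 Mb cluster, with 6035 and 5545 counts in B6 and 6504 and 6799 in D2, had a log2 ratio of 0.20 ± 0.085 with an edgeR adjusted p of 0.0885. Its CPM ratios of a D2 to a B6 library were 0.094 to 0.17 (log2).

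Over all clusters, 82 of the 85 zinc finger genes had an anchor that could be tested, and 18 were lower and 12 higher in D2. They lie on 76 anchors, and genes that share an anchor were each counted. Among all tested anchors 7.1% were lower and 2.68% higher. The lower ones were 11 genes at 29.8 Mb and 7 at 42.5 Mb. Zfp553 and Zfp771 at 127.2 Mb had, like Zfp568, no anchor at their start. Of the 116 other protein-coding genes 72 were tested, with 5 lower and 2 higher. The lower ones were 1 of 1 tested at 29.8 Mb and 4 of 6 at 42.5 Mb. Most of the other genes lay in other clusters, so the totals of the 2 kinds cannot be compared. Within a cluster, anchors of either kind went the same way: at 42.5 Mb 8 of 10 anchors with a zinc finger start and 32 of 41 with no start were lower, and at 29.8 Mb 10 of 13 and 10 of 12. At 29.8 Mb 9 of 10 anchors that contain a match of the linker letters were lower and 11 of 15 without one, and at 42.5 Mb 8 of 9 and 34 of 46.

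The distance of contacts shifted with strain in some clusters. At 29.8 Mb, pairs of 1 to 2 Mb made up 10.4 ± 0.24% of the B6 total but 13.5 ± 0.57% of the D2 total (SD, n = 2), and their log2 ratio was -0.57, while pairs of 5 to 20 kb had -1.07. Counts with the cluster itself took 35.1 ± 0.31% in B6 and 30.5 ± 0.34% in D2. At 6.1 Mb pairs of 1 to 2 Mb went the other way, with 19.1 ± 0.61% in B6 and 14.7 ± 0.19% in D2. Their mean share was also lower in D2 at 12.4, 24.1, 27.7, 42.5 and 127.2 Mb, by fewer percentage points. At 27.7 Mb it was 9.23% in B6 and 8.06% in D2, and at 4.9 Mb 18.2 and 18.6%. Shares over the whole table were not set beside these, so a shift of whole libraries was not tested. At 42.5 Mb the log2 ratio was -0.92 for pairs of 5 to 20 kb and -0.97 for those of 1 to 2 Mb. The typical cluster anchor had between 30.5 partners (median, 12.4 Mb) and 118 (29.8 Mb), beside 49 over all anchors, and the median distance of pairs ranged from 60.7 kb at 12.4 Mb to 251 kb at 29.8 Mb.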

How the data were processed

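H3K27ac HiChIP was measured in embryonic stem cells of 2 B6 and 2 D2 lines. The deposited values are counts of read pairs per pair of anchors, raw and unnormalized, and the single-library files and the series table held the same counts. The authors used HiC-Pro 2.11.4 and DESeq2 with mm10, per the submitters' processing notes; the order of steps and the treatment of reads that fit several copies are not given in the sources used here. The build mm10 is the C57BL/6J assembly, and the effect of this on D2 reads was not tested. The p-value columns in the deposited single-library files, the authors' contact q-values, were not used in a test.

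Counts were fitted for all pairs, all anchors and all regions with edgeR 4.0.16 in R 4.3.3 (quasi-likelihood test, TMM factors, at least 20 counts over 4 libraries, strain as the only term), with Benjamini-Hochberg adjustment over each whole table and a threshold of 0.05. The fits were tested on simulated data. Features named in the text are the strongest pair and gene anchor of each cluster, the called features with the smallest p-values, and the zinc finger gene starts; others were chosen after their values were seen. The members and the gene lists were chosen with earlier results of these data known. Alternatives were DESeq2, RLE factors, other count minimums, library totals within chromosome 7, the replicate number as a block and each library left out. Sequences come from GRCm38 and the RefSeq promoter table. Depth ranged from 2767882 to 2944258 counts, and precision is limited by 2 lines per strain.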

Additional observations from a re-analysis of the deposited data

How the results depend on the processing

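The lower counts in D2 at 29.8 and 42.5 Mb passed the threshold in every alternative run. So did the lower anchor at 4947802 in the 4.9 Mb cluster, while many other calls changed with the setting. The 42 called pairs became 3 with DESeq2, which gave 1162 pairs no adjusted p, 1 with a minimum of 10 counts, 22 with no minimum (13 lower and 9 higher), and 10 to 42 when a library was left out. The 79 called anchors became 34 with DESeq2, 49 with no minimum, and 48 to 113 when a library was left out; with library totals within chromosome 7 they were 94, of which 34 were higher, against 16 of 79. The 5 called clusters became 2 without D2 replicate 1 and 3 with pairs of at least 20 counts only. The log2 ratio of the 4.9 Mb cluster was -0.013 to 0.20 when a library was left out (lowest without D2 replicate 1), -0.024 with pairs of at least 20 counts and 0.24 with both anchors inside, where it passed. That of the 6.1 Mb cluster was 0.23 to 0.38 (lowest without D2 replicate 1). That of the 12.4 Mb cluster was 0.41 with DESeq2, 0.15 to 0.64 when a library was left out (lowest without D2 replicate 1) and 0.25 with pairs of at least 20 counts. That of the 27.7 Mb cluster was 0.24 with RLE factors, with the replicate block and with windows of 500 kb, 0.21 with pairs of at least 20 counts and 0.16 to 0.31 when a library was left out. That of the 127.2 Mb cluster passed at 0.26 with totals within chromosome 7. With pairs of at least 20 counts the ratio of strongest to weakest cluster moved from 7.41 to 13.3. The median share of counts that a cluster had with itself moved from 47.3 to 60.6%. The sign turned for the anchor of Zfp628 without B6 replicate 2 (-0.05) and without D2 replicate 1 (-0.10), and without D2 replicate 1 for the anchor of Zfp36 (-0.0096, up to 0.42 without another library) and its pair with Paf1 (-0.017, up to 0.36). The cause of these changes was not tested. Replicate numbers did not pair the samples, since deviations of same-numbered libraries correlated at -0.000523 over pairs, 0.0076 over anchors and -0.0588 over regions; with the replicate block 40 pairs and 94 anchors were called.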
